A study of Glycine max with 12 samples.

Results

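The genes described here are 6 soybean regulators of seed maturation: LEC1a (GLYMA_07G268100) and LEC1b (GLYMA_17G005600), the ABI3 genes on chromosome 8 (GLYMA_08G357600) and chromosome 18 (GLYMA_18G176100), and the WRI1 genes on chromosome 15 (GLYMA_15G221600) and chromosome 8 (GLYMA_08G227700). They were listed by name and not by a threshold on measured values, but with earlier results of these data known, and they are 6 of the 57147 gene IDs in the deposited tables. The tables give IDs without names, so the names are those under which the genes were chosen. The RefSeq gene table of assembly Glycine_max_v4.0 contains none of the deposited IDs. It does hold symbols for all 6 names, and the chromosomes fit the IDs for both LEC1 and both ABI3 genes, but it has the letters of the WRI1 pair the other way round, which is why the WRI1 genes are named here by chromosome.

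The study exposed soybean plants (Glycine max, cultivar Magellan) to heat, to water deficit and to both at once, and sequenced RNA from their pods. All plants were inoculated with Bradyrhizobium japonicum and grown for 16 to 18 days to the first open flower before they were divided among 4 growth chambers. Under combined stress, days were at 38 °C and nights at 28 °C, and watering was cut to 30% of what the plants could transpire. Heat stress used those temperatures with watering at 100%. Under water deficit the days were at 28 °C, the nights at 24 °C and watering at 30%, and controls were kept at these milder temperatures with watering at 100%. Each condition had 3 libraries, each from 10 to 15 pooled pods of 8 to 10 plants, and each condition had its own chamber, so that condition and chamber cannot be told apart. The labels name the tissue as pods and give neither the age or size of the pods nor the share of seed in them.

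LEC1 (LEAFY COTYLEDON1) is a seed-specific form of the B subunit of nuclear factor Y, a transcription factor that binds CCAAT boxes, and in Arabidopsis it is needed for embryo development and for the onset of seed filling. ABI3 (ABSCISIC ACID INSENSITIVE3) is a B3-domain transcription factor through which abscisic acid switches on storage protein genes and desiccation tolerance in the embryo. WRI1 (WRINKLED1) is an AP2-domain transcription factor that activates genes of glycolysis and plastid fatty acid synthesis, and so directs carbon from sugar into seed oil. In Arabidopsis LEC1 acts above both ABI3 and WRI1. Soybean carries these genes as pairs from an ancient genome duplication.

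The libraries held between 17310023 and 26591115 counts each. A level of 3 counts was taken as the detection limit, since a count of 0 allows a level up to it. Lower counts were also recorded. The limit corresponded to 0.113 to 0.173 CPM (counts scaled to the library total), taken without TMM factors, as are the limits for counts of 0 below. The CPM of the genes are scaled with TMM factors as well, of 0.951 to 1.06. All 6 genes passed the filter for low counts, which left 38737 genes. Water deficit replicate 2 stands apart: 87.5% of its counts from 6 to 65 were even, whereas the other libraries had shares of 59.1 to 78.8%. Even numbers also made up 52 of the 72 values of the 6 genes, so counting error may be larger than the counts themselves imply. A gene counts as called below when the Benjamini-Hochberg adjusted p of edgeR's quasi-likelihood test, over all genes tested, was under 0.05. The libraries of a condition are pools from one chamber, and the p-values measure the spread between such pools.

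All 6 genes rose under combined stress, by 8.07-fold to 23.3-fold over control. Each was also called higher in combined stress than in water deficit and than in heat stress. None of the 6 was called in heat stress or in water deficit against control by the same test. Of all genes tested, only 1.89% were called in heat stress and 0.0955% in water deficit, in either direction. A set of 6 genes without a call is near those shares. In water deficit 5 of the 6 estimates were positive, up to 2.76-fold. The samples are whole pods, in which more cells of a type, such as seed tissue or older seed, and more RNA per cell cannot be told apart. In each of the 6 genes the 3 combined-stress libraries lay above all 9 other libraries, an arrangement found in 5.84% of the genes tested. Of the genes tested, 0.842% were called higher in combined stress than in control, water deficit and heat stress each.

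**Figure D1:**
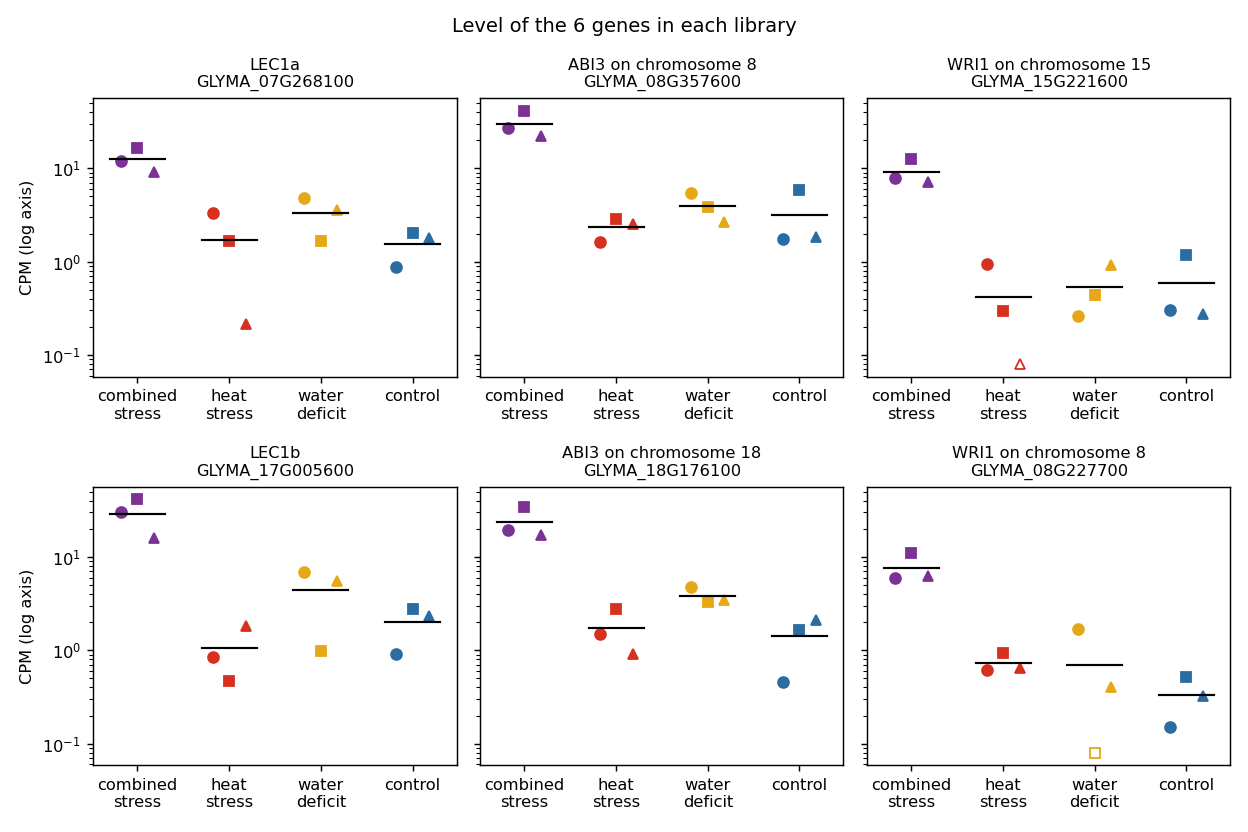
CPM of each gene (log axis) in the 3 libraries of each condition; circles, squares and triangles are replicates 1, 2 and 3, black lines are group means, and open symbols are 0 counts drawn at the foot of the axis. In every panel the 3 combined-stress libraries stand above the other 9, while the other conditions overlap in most panels.

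The LEC1 pair comes first in the order of action. LEC1b had 30.1, 41.3 and 16.0 CPM in the combined-stress libraries and 0.851, 0.472 and 1.83 CPM in the heat-stress libraries. It had 6.82, 0.991 and 5.50 CPM in water deficit and 0.909, 2.77 and 2.31 CPM in control. The lowest combined-stress library thus had 2.35 times the level of the highest other library, water deficit replicate 1. LEC1b averaged 29.1 ± 12.7 CPM in combined stress and 2.00 ± 0.970 CPM in control (SD, n = 3 each), a log2 change of 3.88 (SE 0.70, edgeR adjusted p = 0.00394).

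LEC1a had 12.0, 16.6 and 9.08 CPM in combined stress and 3.31, 1.65 and 0.215 CPM in heat stress. In water deficit it had 4.78, 1.65 and 3.55 CPM, and in control 0.871, 2.00 and 1.80 CPM. Its heat-stress libraries spread widely, from 4 to 70 counts, and they overlapped both the water-deficit and the control libraries. Its change in combined stress against control was the smallest of the 6 genes, 3.01 on the log2 scale (SE 0.64, edgeR adjusted p = 0.00504), and its lowest combined-stress library had 1.90 times the level of its highest other library.

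The ABI3 gene on chromosome 8 had 26.9, 41.4 and 22.0 CPM in combined stress, 1.61, 2.89 and 2.53 CPM in heat stress, 5.46, 3.85 and 2.63 CPM in water deficit, and 1.74, 5.80 and 1.85 CPM in control. Control replicate 2, with 113 counts, was the highest library outside combined stress, and the control, heat-stress and water-deficit libraries overlapped. Combined stress was 9.69-fold higher than control (log2 change 3.28, SE 0.44, edgeR adjusted p = 0.000125).

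The ABI3 gene on chromosome 18 had 19.3, 34.3 and 17.1 CPM in combined stress and 1.51, 2.77 and 0.915 CPM in heat stress. It had 4.72, 3.30 and 3.49 CPM in water deficit, all above the 0.455, 1.64 and 2.13 CPM in control. This gene had the smallest p of the 6 for combined stress against control, at a 16.9-fold difference (log2 change 4.08, SE 0.49, edgeR adjusted p = 3.69e-05).

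Both WRI1 genes were close to the detection limit outside combined stress. WRI1 on chromosome 15 had 7.85, 12.4 and 7.16 CPM in combined stress (178, 225 and 180 counts). It had 20, 5 and 0 counts in heat stress, 5, 8 and 16 in water deficit and 8, 23 and 6 in control. The count of 0, in heat stress replicate 3, allows a level of up to 0.161 CPM by counting error alone. The lowest combined-stress library had 6.07 times the level of the highest other one, the widest such gap among the 6 genes, and the log2 change against control was 3.97 (SE 0.83, edgeR adjusted p = 0.00341).

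WRI1 on chromosome 8 had 5.91, 11.0 and 6.21 CPM in combined stress (134, 198 and 156 counts). Its counts were 13, 16 and 12 in heat stress, 32, 0 and 7 in water deficit, and 4, 10 and 7 in control. The 0 belongs to water deficit replicate 2 and allows up to 0.168 CPM. This gene had the largest estimated change of the 6 in combined stress against control, 23.3-fold (log2 change 4.54, SE 0.90, edgeR adjusted p = 0.00206), with a wide 95% interval of 2.66 to 6.43 on the log2 scale; its control libraries held 21 counts in all.

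Against the whole table, 5.39% of genes were called higher in combined stress than in control, and 6 of 6 members were. In 19.8% of all genes the 3 combined-stress libraries lay above the 3 control libraries without overlap, as they did for all 6 members. The median log2 change was 3.92 over the 6 genes and 0.01 over all genes tested. Between 0.568% of tested genes (for WRI1 on chromosome 8) and 1.54% (for LEC1a) had a larger log2 change than the member. No adjusted p of the 6 exceeded 0.0333 in any fit that left out 1 library.

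**Figure D2:**
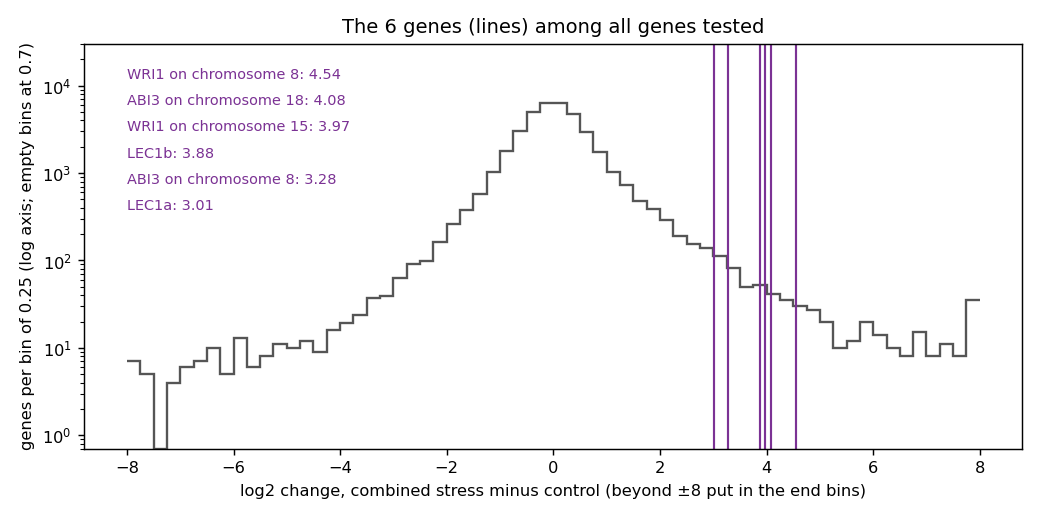
Number of genes (log axis) by log2 change in combined stress minus control, in bins of 0.25, with vertical lines for the 6 genes. The 6 lines lie between 3.01 and 4.54, far to the right of the bulk of genes, whose median is 0.01.

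Combined stress was next set against each single stress, which asks what the second stress added. Against water deficit, where 5.25% of all genes were called higher, all 6 members were called. The differences ran from 3.76-fold for LEC1a (log2 1.91, SE 0.61, edgeR adjusted p = 0.0497) to 16.9-fold for WRI1 on chromosome 15 (log2 4.08, SE 0.85, edgeR adjusted p = 0.00341). The LEC1a call lay at the threshold and was lost in 10 of the 12 fits that left out 1 library, with adjusted p up to 0.157. It was kept only without heat stress replicate 1 or 3. Without combined stress replicate 2, 3 of the 6 genes were called, since LEC1b (edgeR adjusted p = 0.0535) and WRI1 on chromosome 8 (0.0701) were lost as well, and LEC1b was also lost without water deficit replicate 3 (0.0619). With all libraries kept, LEC1b was lost with the replicate number as a block (edgeR adjusted p = 0.0561) and in a fit of the 6 libraries compared (0.0572), and LEC1a with the block (0.075), without the filter for low counts (0.0611) and with limma on log2(FPKM + 0.1) (adjusted p = 0.0781).

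Against heat stress, where 1.64% of all genes were called higher, all 6 members were called as well. The difference was largest for LEC1b, at 27.4-fold (log2 4.78, SE 0.75, edgeR adjusted p = 0.00535), and smallest for LEC1a, at 7.19-fold (log2 2.85, SE 0.64, edgeR adjusted p = 0.017). Both ABI3 genes had 12.9-fold and 13.6-fold differences (chromosome 8 and chromosome 18, edgeR adjusted p = 0.000269 and 0.000319). For the WRI1 genes the differences were 21.3-fold on chromosome 15 and 10.4-fold on chromosome 8 (edgeR adjusted p = 0.00606 and 0.0234). Without combined stress replicate 2, LEC1a, WRI1 on chromosome 15 and WRI1 on chromosome 8 were no longer called (edgeR adjusted p = 0.0772, 0.0503 and 0.152). WRI1 on chromosome 8 was also lost without combined stress replicate 1 or 3 or heat stress replicate 1 or 3, and LEC1a without heat stress replicate 2.

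Heat alone gave no common direction. Of the 6 genes, 3 had a positive and 3 a negative log2 change against control, 0 were called by edgeR or DESeq2, and 0 had an unadjusted p under 0.05. Of all genes, 1.13% were called higher and 0.764% lower, and 13.6% had an unadjusted p under 0.05. The estimates ran from -0.90 for LEC1b (95% interval -2.53 to 0.73, edgeR adjusted p = 0.683) to 1.16 for WRI1 on chromosome 8 (interval -0.65 to 2.98, edgeR adjusted p = 0.629). The 3 heat-stress libraries of WRI1 on chromosome 8 lay above its 3 control libraries, at 12 to 16 counts against 4 to 10, an arrangement seen in 9.73% of all genes. For the 2 ABI3 genes, the best measured of the 6, the intervals were -1.35 to 0.53 (chromosome 8) and -0.72 to 1.34 (chromosome 18), so a heat effect the size of the change under combined stress lies outside them. The signs for LEC1a, ABI3 on chromosome 18 and WRI1 on chromosome 15 turned when FPKM was used in place of counts.

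Water deficit alone gave positive estimates for 5 of the 6 genes, and 0 were called by edgeR or DESeq2, where 0.00516% of all genes were called higher and 0.0904% lower. ABI3 on chromosome 18 came nearest, at 2.76-fold (log2 change 1.46, 95% interval 0.47 to 2.46, unadjusted p = 0.00653, edgeR adjusted p = 0.76), and it was the only one of the 6 with an unadjusted p under 0.05, which 4.35% of all genes had. Its water-deficit libraries lay above its control libraries, as in 4.82% of all genes. LEC1a and LEC1b had estimates of 2.15-fold and 2.25-fold (edgeR adjusted p = 1 for both). In both LEC1 genes, water deficit replicate 2 was the lowest of its group, and without that library the log2 changes were 1.43 and 1.65 (edgeR adjusted p = 1 and 0.716). WRI1 on chromosome 15 had a log2 change of -0.10, with an interval of -1.85 to 1.65.

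**Figure D3:**
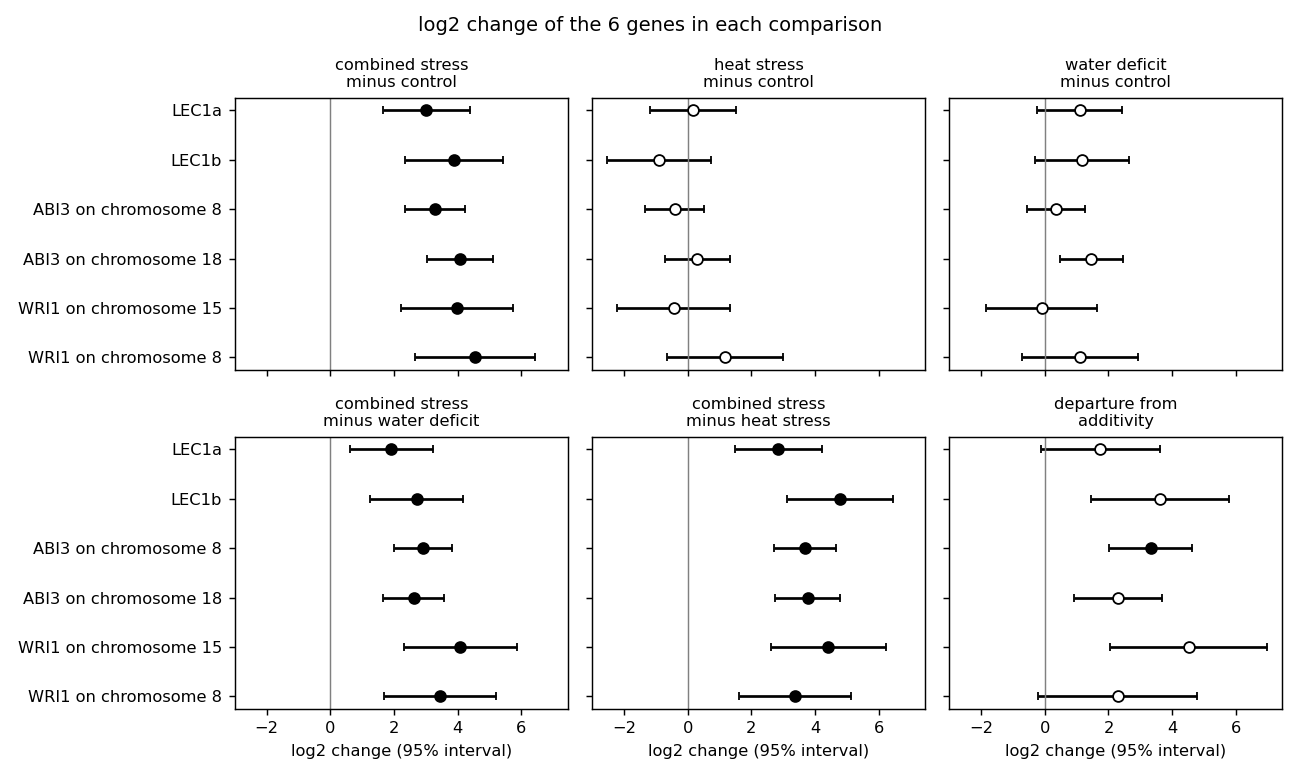
Log2 change of each gene with its 95% interval in 5 comparisons of conditions and, in the last panel, the departure of combined stress from the sum of both single-stress changes; filled points were called (adjusted p under 0.05) and open points were not. All 6 points are filled in the 3 panels with combined stress, none in the heat-stress and water-deficit panels, and 1 in the last panel.

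The layout of 2 temperatures by 2 water supplies also allows a test of whether the combined change departs from both single-stress changes added together on the log2 scale. The departure was positive for all 6 genes, from 1.74 for LEC1a to 4.52 for WRI1 on chromosome 15, with a median of 2.81 against -0.02 over all genes. It was called for ABI3 on chromosome 8 alone (3.32, SE 0.61, edgeR adjusted p = 0.0417), where 0.0284% of all genes were called with a positive departure. In 4 of the 6 genes the unadjusted p was under 0.05, as in 10.6% of all genes. The adjusted p values of the other 5 genes ranged from 0.142 for WRI1 on chromosome 15 to 0.525 for WRI1 on chromosome 8. The call for ABI3 on chromosome 8 was kept without control replicate 1, water deficit replicate 1 or combined stress replicate 3 and lost in the other 9 of the 12 fits that left out 1 library, where the departure ranged from 2.57 to 3.62 and its adjusted p reached 0.14.

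Levels can be compared between genes only per unit of length, for which the deposited FPKM values (fragments scaled by gene length and library total) were used. In combined stress LEC1b stood first, with 32.6 ± 13.8 FPKM, then LEC1a with 12.1 ± 4.16, ABI3 on chromosome 8 with 9.11 ± 3.47, ABI3 on chromosome 18 with 6.18 ± 2.27, WRI1 on chromosome 15 with 3.85 ± 1.19 and WRI1 on chromosome 8 with 3.69 ± 1.33 FPKM (SD, n = 3 each). Only LEC1b was separated from its neighbour in that order by a gap between libraries. The ranges of the other neighbours overlapped, although each of the 3 libraries taken alone gave the same order, down to 5.225 and 5.223 FPKM for the WRI1 genes in replicate 2. In control the order by mean began in the same way, with LEC1b at 2.11 ± 1.15 and LEC1a at 1.42 ± 0.789 FPKM, and ended with the WRI1 genes on chromosome 8 at 0.207 ± 0.0752 and on chromosome 15 at 0.197 ± 0.235 FPKM (SD, n = 3 each), and every pair of neighbours overlapped. LEC1a stood above LEC1b in heat stress by mean FPKM, 1.27 ± 0.828 against 1.13 ± 0.229 (SD, n = 3 each), with overlapping libraries. The FPKM carries its own uncertainty. WRI1 on chromosome 15 was listed at 0 FPKM in control replicate 1 with 8 counts, and at 0.131 FPKM in heat stress replicate 3 with 0 counts. Higher counts were affected too: LEC1a had 70 and 28 counts in heat stress replicates 1 and 2 but 1.83 and 1.67 FPKM. ABI3 on chromosome 18 had 17 counts and 0.0735 FPKM in heat stress replicate 3, against 12 counts and 0.145 FPKM in control replicate 1. The order of levels outside combined stress is uncertain to that extent.

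The balance within each pair was examined as the share of the pair's counts that fell on one gene. LEC1b took 71.5%, 71.3% and 63.8% of the LEC1 counts in the combined-stress libraries, against 51.1%, 58.1% and 56.2% in control. These ranges did not overlap, nor did those of combined stress and water deficit (58.8%, 37.5% and 60.8%). An exact two-sided permutation test over 3 against 3 libraries gave p = 0.1 for each, the smallest p that such groups allow. The adjusted p of this permutation test was 0.3 over 18 comparisons of shares. These took the same libraries both by counts and by FPKM and were not independent. In heat stress the share was 20.5% and 22.2% in replicates 1 and 2 and 89.5% in replicate 3, from 88, 36 and 38 counts. Exact 95% binomial (Clopper-Pearson) intervals of these 3 shares were 12.6 to 30.4%, 10.1 to 39.2% and 75.2 to 97.1%; they take each count as independent, which the many even counts put in doubt. By FPKM the same shares were 40.8%, 34.1% and 79.8%, so the size of the gap between the heat-stress libraries depends on the table.

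ABI3 on chromosome 18 took 41.8%, 45.3% and 43.7% of the ABI3 counts in combined stress, against 46.4%, 46.2% and 57.0% in water deficit, without overlap (exact permutation p = 0.1, adjusted p = 0.3). In control its share was 20.7%, 22.1% and 53.5%, a range that takes in the combined-stress values. WRI1 on chromosome 8 took 42.9%, 46.8% and 46.4% of the WRI1 counts in combined stress, and the shares elsewhere rested on 8 to 37 counts per library and ran from 0 to 100%. How reads that match both genes of a pair were counted is not given in the sources used here, so the shares and the single-gene levels are uncertain to that extent.

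**Figure D4:**
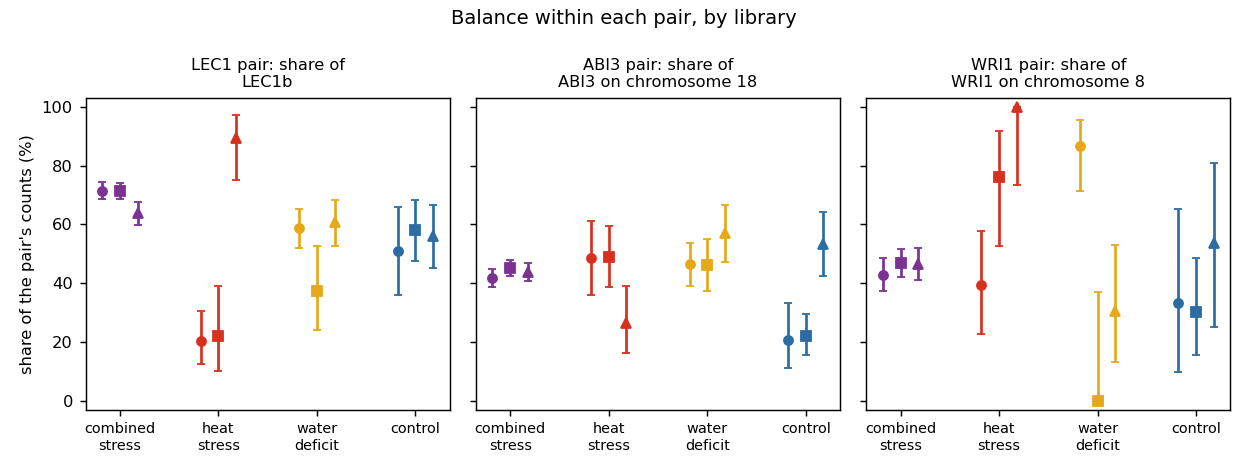
Share of a pair's counts (percent) on LEC1b, ABI3 on chromosome 18 and WRI1 on chromosome 8 in each library, with exact 95% binomial intervals that cover counting error only; circles, squares and triangles are replicates 1, 2 and 3. The combined-stress libraries lie close together in all 3 panels, at 63.8 to 71.5%, 41.8 to 45.3% and 42.9 to 46.8%, and the heat-stress libraries of the LEC1 pair lie far apart.

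Among the combined-stress libraries, replicate 2 was the highest for all 6 genes, and replicate 3 the lowest for all except WRI1 on chromosome 8. The highest library exceeded the lowest by 1.74-fold (WRI1 on chromosome 15) to 2.58-fold (LEC1b). The CPM of the 6 genes added up to 102, 157 and 77.5 in combined stress, against 8.84, 9.02 and 6.14 in heat stress, 23.7, 10.2 and 16.5 in water deficit and 4.43, 13.9 and 8.69 in control. All 3 combined-stress sums exceeded the highest sum of any other library, 23.7 in water deficit replicate 1. This follows from the separation of each of the 6 genes and adds nothing to it.

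Likeness of pattern was measured by Pearson's r of log2 CPM over the 12 libraries with each of the other 38736 genes tested, as a description. The 12 libraries share the gap between combined stress and the rest, so r was also taken over the 9 libraries outside combined stress. Every pair of members had an r between 0.738 and 0.915 over 12 libraries and between -0.13 and 0.736 over the 9. Over the 12 libraries the ABI3 genes had the highest r of any 2 members (0.915, ranks 68 and 94 in each other's order), with r = 0.534 over the 9. LEC1a and WRI1 on chromosome 15 stood nearer to each other by rank over the 12 libraries (41 and 25, r = 0.903). They had the highest r of any 2 members over the 9 libraries, 0.736, followed by LEC1a and ABI3 on chromosome 18 at 0.692. Their ranks over the 9 were only 1223 and 513 for LEC1a and WRI1 on chromosome 15, where the WRI1 gene had at most 23 counts. The LEC1 genes ranked 592 and 524 in each other's order (r = 0.792, and 0.38 over the 9 libraries) and the WRI1 genes 877 and 2273 (r = 0.738, and -0.13 over the 9). The single most alike gene of ABI3 on chromosome 18 was GLYMA_13G271200 (r = 0.980, and 0.964 over the 9 libraries), and that of WRI1 on chromosome 8 was GLYMA_14G121400 (r = 0.977, and 0.946 over the 9), which is also on the list of 23 IDs below. These are the highest values among the 6 members, and the sources used here give no names for these IDs. The 9 libraries are part of the 12 over which the IDs were picked, so r over the 9 is not a separate check. Many genes were nearly as alike: 129 had an r over 0.9 with ABI3 on chromosome 18 and 168 with WRI1 on chromosome 8, over the 12 libraries.

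The members' levels were set beside a list of 23 other IDs, taken as soybean seed genes from general knowledge and annotated neither in the deposited tables nor in the gene table, so that they are given without names. The list holds 9 IDs taken as storage globulins, 5 as other seed proteins, 6 as oil genes and 3 as further regulators. The list, like the members, was drawn up with earlier results known. Of the 23, 13 passed the filter for low counts, and in combined stress against control 7 were called higher, 0 lower and 6 were not called, where 5.39% of all genes were called higher and 8.56% lower. The 7 were 3 of the seed proteins and 4 of the oil genes. Some of the 7 passed the filter through the combined-stress libraries and could hardly have been called lower. Examples averaged 417, 301 and 123 counts in combined stress and 1.33, 0 and 1 in control. Others of the 7 averaged 31.3, 118 and 361 counts in control. The balance of higher and lower calls was thus partly fixed by the filter. All 10 IDs that failed the filter had 0 counts in the 9 libraries outside combined stress, and 7 of these had at least 1 count in combined stress.

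The globulin IDs summed to 62.0, 11.1 and 1.11 CPM in combined stress, to 0.0473, 0.295 and 0 CPM in heat stress and to 0 in all water-deficit and control libraries. This sum rested mostly on 1 ID, which averaged 503 counts in combined stress and was not called against control (edgeR adjusted p = 0.0861), and 2 to 7 of the 9 IDs had 0 counts in a combined-stress library. It was highest in replicate 1, whereas the 6 regulators were highest in replicate 2. The 5 other seed proteins summed to 340, 272 and 34.0 CPM in combined stress and to at most 12.7 CPM in any other library. Most of this sum too came from 1 ID, with 3910 counts on average in combined stress against 417 for the next. The 6 oil IDs summed to 268, 558 and 164 CPM in combined stress, 42.4 to 45.1 in heat stress, 31.2 to 46.0 in water deficit and 25.4 to 37.5 in control. The largest part in combined stress came from 1 ID, with 3936 counts on average against 1683 for the next. Another called oil ID had a log2 change against control of only 0.78 (edgeR adjusted p = 0.00611). The 3 further regulators summed to 74.9 to 99.4 CPM over the 12 libraries, most of it from 1 ID. The least abundant of the 3 averaged 43.7 counts in combined stress and 6 in control (log2 change 2.86, edgeR adjusted p = 0.254), and none of the 3 was called. The part of seed content in the rise of the 6 genes was not tested.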

How the data were processed

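RNA from soybean pods was sequenced as paired ends in 12 libraries, 3 per condition, with groups and replicate numbers from the sample titles. The authors deposited read counts per gene and FPKM per gene for 57147 IDs. HISAT2 2.2.1 is named in the submitters' processing notes. The counting tool, strand setting, annotation and genome build are not given in the sources used here. The deposited counts entered the tests unchanged, and the deposited FPKM served for levels between genes and in an alternative test.

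The whole table was fitted with edgeR 4.0.16 (R 4.3.3; robust quasi-likelihood test, TMM factors, filterByExpr on the groups, 4 group means over 12 libraries), and p-values were adjusted over all genes tested. The SE is the log2 change divided by the square root of F, and intervals use the test's own degrees of freedom. The 6 genes are named in every comparison, and only the 2 closest IDs by likeness, since IDs lack names. The scripts were tested on simulated data. Alternatives were other scalings, no filter, DESeq2 1.42.0, limma 3.58.1 on log2(FPKM + 1) and log2(FPKM + 0.1), a replicate block, fits of the libraries compared alone, and each library left out.

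The members and lists were chosen with earlier results of these data known. Lists planned from gene descriptions, green-tissue markers among them, and a search of promoter motifs were not run, because the IDs matched no annotation and no sequences were at hand.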

Additional observations from a re-analysis of the deposited data

Results flagged for a closer look

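For ABI3 on chromosome 8 the interaction test called the effect of heat different between water-deficit and watered plants, which is why it stands here. The departure from additivity was 3.32 on the log2 scale (SE 0.61, edgeR adjusted p = 0.0417). Of the 38737 genes tested, 54 (0.139%) were called, and 0.0284% were called with a positive departure. The call for ABI3 on chromosome 8 was lost in 9 of the 12 fits that left out 1 library, with edgeR adjusted p up to 0.14. The departures of LEC1b (3.61) and WRI1 on chromosome 15 (4.52) were larger but not called (edgeR adjusted p = 0.221 and 0.142). Combined stress was 7.53-fold higher than water deficit for this gene (edgeR adjusted p = 0.000345), while heat stress was at 0.753 times the control level (edgeR adjusted p = 0.776). The adjusted p was 8e-05 with DESeq2, 0.0578 with scaling by library size alone, and 0.13 and 0.243 with limma on log2(FPKM + 1) and log2(FPKM + 0.1).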

How the results depend on the processing

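The rise of all 6 genes in combined stress over control was called under every alternative run, with log2 changes from 1.92 to 5.02. Shifts of over 1.5 times in a count of calls and turned signs are listed here, and the cause was not tested for any of them. Among all genes, combined stress against control gave 9190 calls in a fit of the 6 libraries compared, heat stress against control 1441 with DESeq2 and 425 with 6 libraries, water deficit against control 121 with DESeq2, 10 and 7 with FPKM (pseudocounts 1 and 0.1) and 18 with 6 libraries, and combined against heat stress 3102 with DESeq2. The interaction gave 21 calls with library size alone, 96 without a filter, 440 with DESeq2 and 19 and 11 with FPKM. Among the 6 genes it gave 3 with DESeq2 and 0 with library size alone or with FPKM at either pseudocount.

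Signs turned only for changes that were not called. Heat stress against control turned to -0.06 for LEC1a with a replicate block, to -0.12 and -0.29 for LEC1a, -0.12 and -0.40 for ABI3 on chromosome 18 and 0.08 and 0.52 for WRI1 on chromosome 15 with FPKM (pseudocounts 1 and 0.1). Water deficit against control turned for WRI1 on chromosome 15 to 0.11 with the block and to 0.05 and 0.40 with FPKM, and for WRI1 on chromosome 8 to -0.09 with FPKM and a pseudocount of 0.1.

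Leaving out 1 library at a time gave, among all genes, 3196 to 6599 calls for combined stress against control, 265 to 1022 for heat stress, 4 to 40 for water deficit, 3008 to 6484 for combined stress against water deficit, 548 to 2601 against heat stress and 0 to 146 for the interaction. Of the 6 genes, 3 to 6 were called for combined stress against each single stress and 0 to 2 for the interaction. The log2 changes in heat stress ranged from -0.75 to 0.69 for LEC1a, -0.71 to 0.37 and -0.18 to 0.75 for ABI3 on chromosomes 8 and 18, and -1.97 to 0.53 for WRI1 on chromosome 15. In water deficit they ranged from -0.72 to 0.86 and from -0.69 to 1.69 for WRI1 on chromosomes 15 and 8.

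The labels do not say whether same-numbered libraries shared a batch. Of 18 correlations of their deviations from group means, 1 exceeded 0.1 (mean -0.014, range -0.219 to 0.142). Deviations from means of 3 libraries cannot decide the question. With the replicate as a block, 4 of the 6 genes were called for combined stress against water deficit (LEC1a and LEC1b had edgeR adjusted p = 0.075 and 0.0561), and the counts over the 6 genes were otherwise as without it. Outside combined stress the WRI1 genes had at most 32 counts per library, and their estimates there are imprecise.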
